A study of Homo sapiens with 16 samples.

Results

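CTCF sites were examined around 10 imprinted genes, H19, IGF2, KCNQ1OT1, CDKN1C, MEST, PEG3, PEG10, DLK1, MEG3 and GNAS, to see where CTCF was bound at these loci and whether the binding differed after HRAS transformation. A site was counted when its peaks came within 50 kb of the annotated gene body. Of 29064 CTCF sites in all, 37 met this rule, and they held 84 of the 71164 CTCF peaks. All but KCNQ1OT1, which had 0, had a site nearby. Sites are numbered along each chromosome from the lower coordinate, so H19-1 is the lowest-numbered position near H19.

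The ChIP-seq data came from MCF10A, a non-tumorigenic human mammary epithelial cell line. The parental MCF10A cells were compared with MCF10A cells that had received HRAS carrying the G12V change by lentiviral transduction and hygromycin selection (termed G12V), with 2 biological replicates of each. All 4 CTCF libraries used the same antibody in cells without Nutlin, while the 4 p53 libraries of the series came from Nutlin-treated cells. The 8 input libraries entered only through the authors' peak calls. Nothing in the sources used here states how many transduced clones the G12V cells represent, and the peak lists do not separate the maternal from the paternal allele. The replicates are described as biological, and no description ties a replicate of one cell type to a replicate of the other.

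Imprinted genes are expressed from one parental allele, and the choice is set by differentially methylated control regions laid down in the germ line. CTCF, a DNA-binding protein with zinc fingers, acts at insulators and at domain borders. At the H19/IGF2 locus it binds the unmethylated maternal control region and insulates IGF2, a growth factor gene, from enhancers beyond H19, whereas CpG methylation keeps it off the paternal copy.

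The 4 peak lists differed in length, with 11346 and 20136 peaks in MCF10A replicates 1 and 2 and 12004 and 27678 peaks in G12V replicates 1 and 2. The libraries were called at a depth of 10.7 to 13.5 M reads (1 M is 1e6 reads). Fold enrichment is the ratio of summit pileup to local background after 1 is added to each. Its median was higher in both replicates 2 (8.89 and 9.99) than in both replicates 1 (7.10 and 7.16). Absence from a list therefore means only that no peak was detected with the depth and enrichment of that library, not that CTCF was absent.

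The annotated H19 gene body held a cluster of 5 sites, H19-5 to H19-9, whose summits spanned 3994 bp. H19 encodes a maternally expressed long noncoding RNA. The annotation has 31 H19 transcripts, of which 17 start downstream of the whole cluster, and the summits fell in introns of the longer H19 transcripts. This is the stretch upstream of the usual H19 start in which the control region lies. The best-scoring 20-letter word under a CTCF matrix learned from other sites of these data lay on the minus strand at all 5 sites, and the words are shown because 3 of them were identical. Capitals mark the word, and 15 bases are shown on each side, 5′ to 3′ along the stated strand of GRCh37.
H19-5 at chr11:2020257-2020306, minus strand: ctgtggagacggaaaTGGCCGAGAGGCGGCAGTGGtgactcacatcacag
H19-6 at chr11:2021180-2021229, minus strand: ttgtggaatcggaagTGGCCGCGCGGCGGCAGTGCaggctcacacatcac
H19-7 at chr11:2021992-2022041, minus strand: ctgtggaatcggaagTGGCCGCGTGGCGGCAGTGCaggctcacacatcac
H19-8 at chr11:2023425-2023474, minus strand: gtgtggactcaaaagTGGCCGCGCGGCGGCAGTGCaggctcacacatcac
H19-9 at chr11:2024231-2024280, minus strand: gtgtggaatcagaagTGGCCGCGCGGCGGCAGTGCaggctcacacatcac

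H19-6, H19-8 and H19-9 carried the same word, H19-7 differed from it at 1 of the 20 letters and H19-5 at 3. The shared word occurred 4 times in the H19 gene body, once in H19-6, once in H19-9 and at 2 places in H19-8. It was the best word of no other CTCF site in the 29064. Each copy holds 4 CpG dinucleotides, the letter pair that carries DNA methylation, and the H19-5 and H19-7 words hold 2 and 3. The list-derived matrix scored the shared word only 2.36 (log2 odds), below the 5.63 that 5% of flanking windows passed, while H19-5 scored 8.21 and H19-7 scored 6.65. Only these last 2 sites counted as motif matches.

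All 5 sites of the cluster were called in G12V replicate 2, and 3 of them in MCF10A replicate 2. No peak was called in the cluster in either replicate 1 list. At H19-5 the fold enrichment was 10.4 in MCF10A replicate 2 and 6.97 in G12V replicate 2. At H19-8 it was 7.27 and 9.11 and at H19-9 it was 7.96 and 9.17, in the same order. The MCF10A value was the higher at H19-5 and the G12V value at the other 2. These folds are unscaled and come from 1 library per cell type. At all sites called in all 4 lists, the median fold was 11.1 in MCF10A replicate 2 and 14.7 in G12V replicate 2. No order of the cell types is therefore read from them. H19-6 had a fold of 9.74 and H19-7 one of 5.64, both in G12V replicate 2 alone. These peaks stood on few reads, 15 to 20 at the summit in MCF10A replicate 2 and 14 to 26 in G12V replicate 2. They ranked low to middle in their lists, at percentiles of 22.5 to 48.8 and 9.53 to 40.2, where 100 is the strongest peak by the −log10 q-value.

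**Figure D1:**
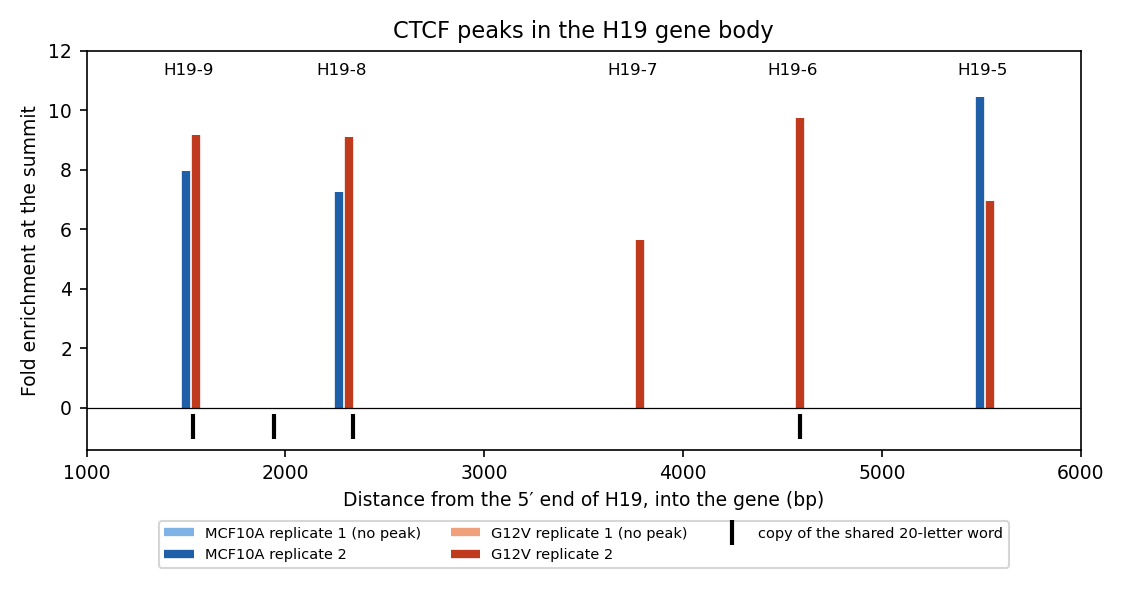
Fold enrichment at the summit of each CTCF peak (y axis) against the distance into H19 from its annotated 5′ end in bp (x axis), with bars coloured by library and black ticks at the 4 copies of the shared 20-letter word. Bars come only from the 2 lists of the second replicates, and both replicates 1 have none.

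Around the cluster, H19 had 5 further sites. H19-3 and H19-10 were called in all 4 lists. H19-3 lies at chr11:1974729-1975165, in an intron of MRPL23, a mitochondrial ribosomal protein gene, with its summit 50846 bp downstream of the H19 5′ end. H19-10 lies at chr11:2057956-2058468, between genes and 32500 bp upstream. H19-1 and H19-2 were at the MRPL23 start, and H19-4 was in an MRPL23 intron and was called in G12V replicate 1 alone. The cluster thus lay between 2 sites found in every library while it was itself found only in the second replicates.

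IGF2 had 9 sites, of which 4 were called in all 4 lists. IGF2-3, at chr11:2172659-2173576, lay in an intron of IGF2. IGF2-5, at chr11:2187312-2187763, lay in an exon of the neighbouring TH gene, which encodes tyrosine hydroxylase. IGF2-8 and IGF2-9, at chr11:2216110-2216680 and chr11:2218385-2218819, lay between genes, upstream of the IGF2 5′ end by 36716 and 38984 bp. IGF2-4 was called in every list but G12V replicate 1, and IGF2-6 in every list but MCF10A replicate 1. IGF2-2 was called in MCF10A replicate 1 and G12V replicate 2, IGF2-7 in MCF10A replicate 2 alone and IGF2-1 in G12V replicate 2 alone.

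CDKN1C, which encodes the cell-cycle inhibitor p57, had 4 sites, all upstream of the gene. CDKN1C-1, at chr11:2909618-2910021, lay in an exon of SLC22A18AS, and CDKN1C-2, at chr11:2913292-2913739, in an intron of that gene. CDKN1C-4, at chr11:2951729-2952384, lay 1481 bp from the nearest start of PHLDA2, another imprinted gene of the cluster. These 3 were called in all 4 lists, and CDKN1C-3 in G12V replicate 2 alone.

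KCNQ1OT1, a paternally expressed noncoding RNA transcribed antisense from within KCNQ1, had 0 sites in a window of 202.7 kb. Among the 3916 genes whose windows were within 1.2 times that length, the median was 2 sites and 15.1% had 0, so an empty window was not unusual. At the other end, H19 had 10 sites, and 0.212% of 25440 genes with a like window had as many or more. For IGF2, 9 sites or more were found at 0.936% of 15605 such genes. CDKN1C's 4 sites were reached by 20.8% of genes with a like window and MEG3's 6 by 8.27%. Windows of neighbouring genes overlap in the genome, so these shares are descriptions.

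MEG3, a maternally expressed noncoding RNA of the DLK1 domain, had 6 sites. MEG3-2, at chr14:101317420-101317865 in an annotated exon of MEG3, was called in all 4 lists and had the highest matrix score of the 37 sites, at 24.3. MEG3-1, at chr14:101293392-101293747, lay 143 bp from a MEG3 start and was called in MCF10A replicate 2 alone. MEG3-6 was called in both replicates 2, and MEG3-3, MEG3-4 and MEG3-5 in G12V replicate 2 alone. DLK1, the paternally expressed Notch-ligand relative of the same domain, had 1 site, at chr14:101174659-101174959, 17194 bp upstream and called in MCF10A replicate 2 alone with a fold of 8.45.

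GNAS, which encodes the alpha subunit of the stimulatory G protein and uses several imprinted starts, had 4 sites. GNAS-4, at chr20:57445308-57445705 in a GNAS intron, was called in all 4 lists. GNAS-1, at chr20:57414541-57414811, lay 134 bp upstream of the annotated GNAS 5′ end, and GNAS-2, at chr20:57427767-57428047, had its summit in a GNAS UTR. Both of these were called in G12V replicate 2 alone, with folds of 5.24 and 4.29, and GNAS-3 in MCF10A replicate 2 alone.

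MEST, PEG10 and PEG3 are paternally expressed genes, and each had a single site, close to a start. MEST-1, at chr7:130125811-130126195, had its summit 19 bp from the MEST start. PEG10-1, at chr7:94285351-94285809, had its summit 128 bp upstream of the annotated PEG10 5′ end and 0 bp from a start of SGCE, which runs the other way. At MEST-1 the fold was 8.07 in MCF10A replicate 2 and 12.7 in G12V replicate 2. At PEG10-1 it was 7.45 and 12.9. Neither was called in a replicate 1 list. The unscaled fold was higher in G12V replicate 2 at both. The median fold at all sites called in all 4 lists was also higher in that library (14.7, against 11.1 in MCF10A replicate 2). PEG3-1, at chr19:57348702-57348955 in a PEG3 intron and 278 bp from a PEG3 start, was called in G12V replicate 2 alone, with 9 reads at the summit and a fold of 5.01. It ranked 27227 of 27678 in that list. In all, 12 of the 37 sites had a summit within 500 bp of an annotated start of a coding or long noncoding gene, and 8 lay between genes. The windows are drawn around genes, and no share over all CTCF sites is given for these 2 counts. They therefore do not show that these loci differ from others.

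**Figure D2:**
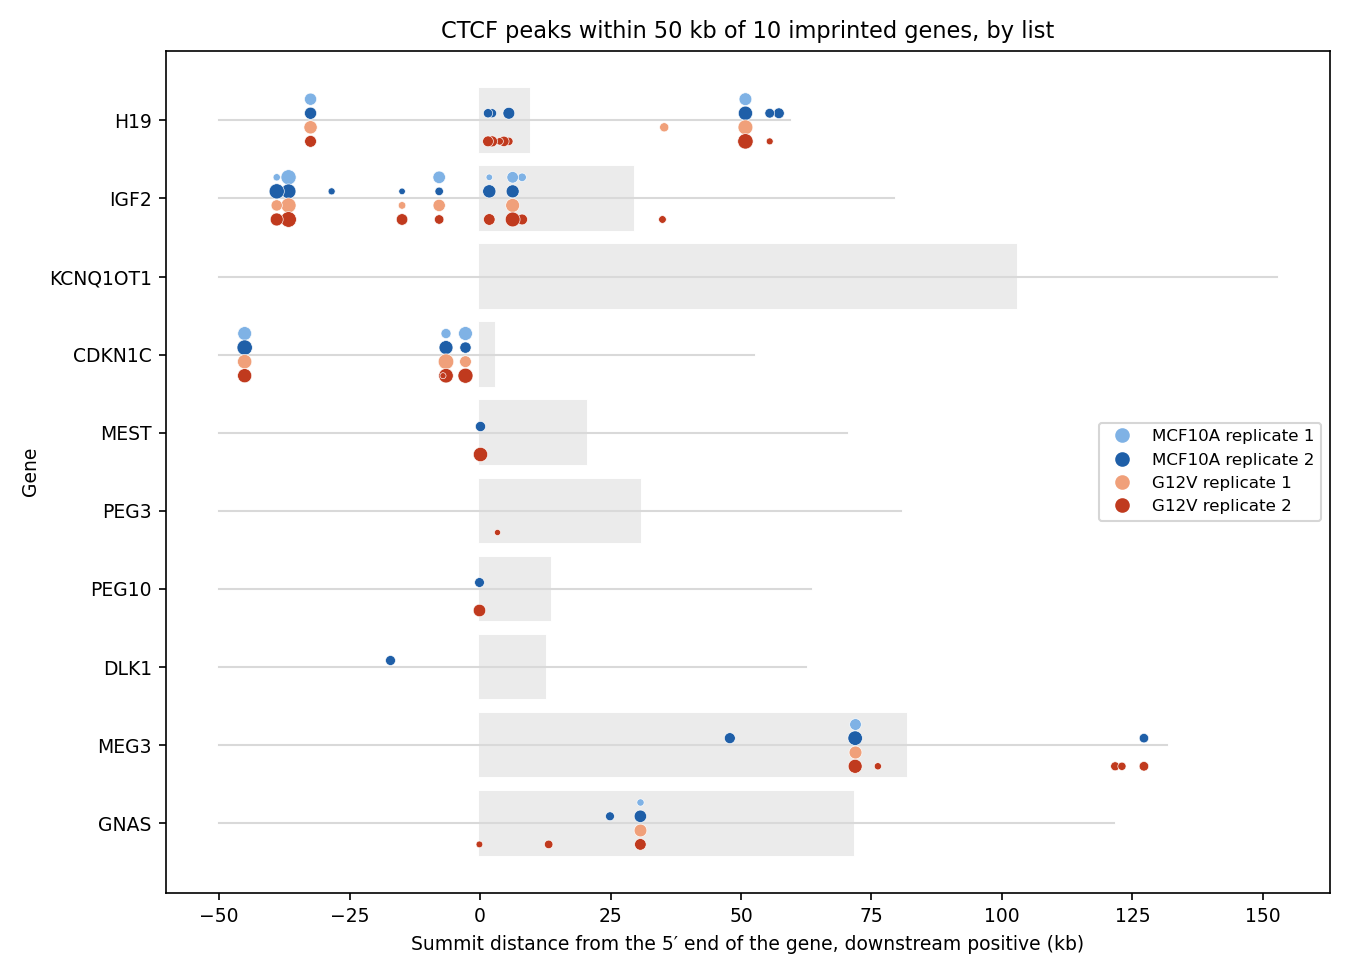
Position of each CTCF peak summit from the 5′ end of its gene in kb (x axis) for the 10 genes (y axis), with 1 row of points per list and larger points for a higher percentile within the list. Grey boxes are gene bodies. The 11 sites with 4 stacked points lie near H19, IGF2, CDKN1C, MEG3 and GNAS, and the KCNQ1OT1 row is empty.

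Of the 37 sites, 11 were called in all 4 lists, or 29.7%, against 27.5% of all CTCF sites. Another 10 were called in G12V replicate 2 alone (25.4% of all sites) and 7 in both replicates 2 only (19.1% of all sites). None was called in both MCF10A lists and neither G12V list, where the share of all sites was 0.261%. None was called in both G12V lists and neither MCF10A list, where it was 3.33%. With every list cut to the length of the shortest, these 2 shares of all sites were 3.67% and 3.54%. Sites in 3 lists were fewer here, with 1 site in every list but G12V replicate 1 (IGF2-4; 9.73% of all sites) and 1 in every list but MCF10A replicate 1 (IGF2-6; 8.9% of all sites). The class of MCF10A replicate 2 alone held 5 sites, H19-1, IGF2-7, DLK1-1, MEG3-1 and GNAS-3, or 13.5%, against 3.37% of all sites. These differences were noticed after the values were seen and were not tested.

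Per list, 14 and 25 peaks lay near these genes in MCF10A and 14 and 31 in G12V, which was 0.112% to 0.124% of each list. The log2 ratio of the mean number in G12V to that in MCF10A was 0.21, less than the spread between replicates (pooled SD 0.71 on the log2 scale). With 2 lists against 2, an exact two-sided permutation test cannot give a p below 0.333, and none was run.

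**Figure D3:**
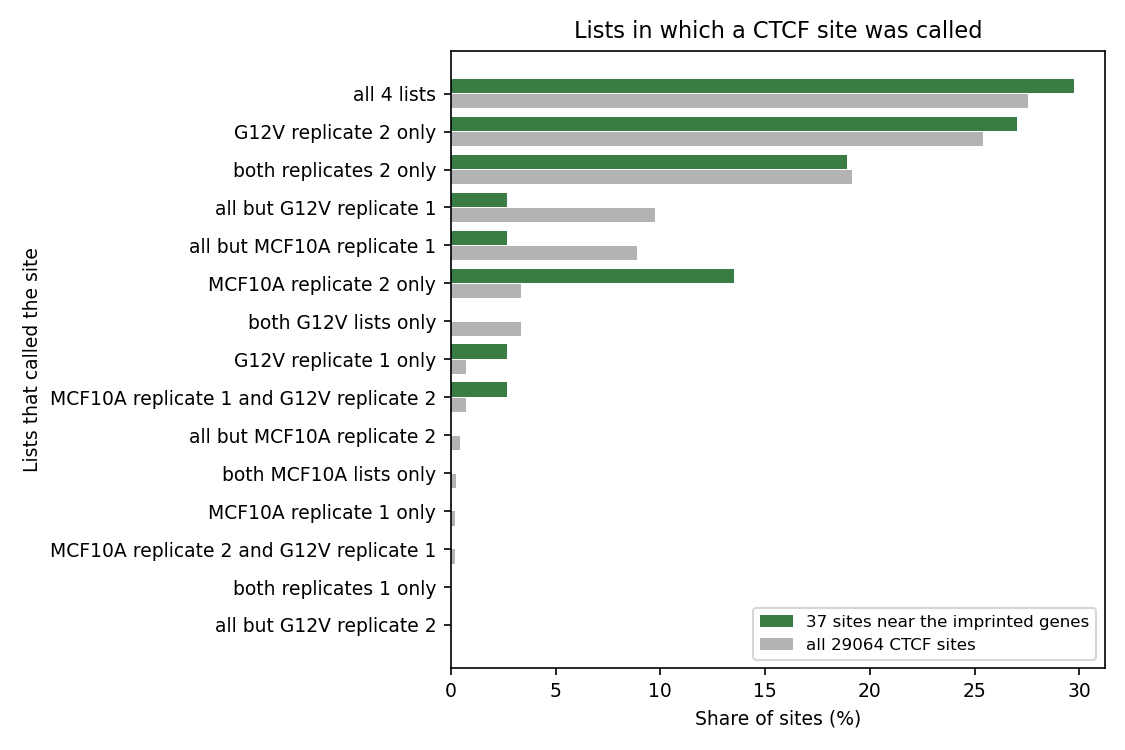
Share of sites in percent (x axis) by the lists that called the site (y axis), for the 37 sites near the imprinted genes (green) and for all 29064 CTCF sites (grey). The green and grey bars are of similar length for all 4 lists, at 29.7% and 27.5%, and are furthest apart for MCF10A replicate 2 alone.

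The 11 sites of all 4 lists allowed a comparison of enrichment between the cell types. Most carried a match to the CTCF matrix, whose letters found in at least 60% of the aligned sites read NNNCCANCAGGGGGCNNNNN. The 9 matches are shown because these sites were found in every library, with the 20 aligned letters in capitals. CDKN1C-2 and IGF2-9 had no match within the 150 bp around the summit.
H19-3 at chr11:1974918-1974967, plus strand: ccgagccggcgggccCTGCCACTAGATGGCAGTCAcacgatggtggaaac
H19-10 at chr11:2058268-2058317, plus strand: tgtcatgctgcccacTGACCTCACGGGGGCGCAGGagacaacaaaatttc
IGF2-3 at chr11:2173349-2173398, minus strand: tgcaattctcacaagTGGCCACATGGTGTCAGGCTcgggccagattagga
IGF2-5 at chr11:2187493-2187542, plus strand: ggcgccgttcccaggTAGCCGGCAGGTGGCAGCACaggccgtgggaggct
IGF2-8 at chr11:2216299-2216348, minus strand: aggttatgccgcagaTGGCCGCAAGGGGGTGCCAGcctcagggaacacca
CDKN1C-1 at chr11:2909762-2909811, minus strand: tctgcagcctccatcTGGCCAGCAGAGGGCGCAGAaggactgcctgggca
CDKN1C-4 at chr11:2952091-2952140, plus strand: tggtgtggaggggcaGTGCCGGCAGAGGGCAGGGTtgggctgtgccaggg
MEG3-2 at chr14:101317635-101317684, plus strand: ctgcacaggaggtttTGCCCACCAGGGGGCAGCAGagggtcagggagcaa
GNAS-4 at chr20:57445494-57445543, plus strand: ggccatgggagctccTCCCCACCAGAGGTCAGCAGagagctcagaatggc

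At H19-3 the fold enrichment was 7.03 and 14.8 in MCF10A replicates 1 and 2 and 11.4 and 20.5 in G12V replicates 1 and 2. The peak ranked 4532 of 11346 and 4524 of 20136 in MCF10A and 1705 of 12004 and 2012 of 27678 in G12V. Once the libraries were scaled to one distribution, both G12V values lay above both MCF10A values. Its log2 difference was 0.41 ± 0.43 (SE, n = 2 per cell type), with an adjusted p of 0.989 in limma. H19-10 had folds of 6.81 and 8.44 in MCF10A and 8.97 and 9.70 in G12V, and its scaled values overlapped between the cell types.

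IGF2-3 had folds of 6.82 and 10.2 in MCF10A and of 8.26 and 18.5 in G12V replicates 1 and 2. This was the other site at which the scaled values of the cell types did not overlap, with a log2 difference of 0.36 ± 0.45 (SE) and an adjusted p of 0.98995 in limma. The summits of its 4 peaks were up to 550 bp apart, so the merged site joins separate summits. IGF2-8 was the strongest site of the 37 by mean percentile, with folds of 10.95 and 16.2 in MCF10A and 8.45 and 24.1 in G12V. IGF2-5 had folds of 8.27 and 7.16 in MCF10A and 8.43 and 8.46 in G12V, and its scaled values were higher in replicate 1 than in replicate 2 of both cell types (3.46 and 2.73, 3.47 and 2.60). IGF2-9 had folds of 4.30 and 14.6 in MCF10A and 6.63 and 11.9 in G12V. This was, in MCF10A, the widest ratio between 2 replicates of one cell type among the 11 sites. At all 3, the scaled values overlapped.

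CDKN1C-1 had folds of 9.25 and 5.44 in MCF10A and 7.24 and 17.9 in G12V. The low value in MCF10A replicate 2 came with 39 summit reads, more than the 29 of replicate 1, and with a recovered local background of 6.0 against 1.14 (fragments covering a base, at the calling depth). CDKN1C-2 had folds of 6.65 and 13.4 in MCF10A and of 13.7 and 15.3 in G12V. CDKN1C-4 showed 6.89 and 12.8 in MCF10A, with 8.16 and 12.2 in G12V. The cell types overlapped at all 3 of these sites on the scaled values. CDKN1C-2 ranked 538 of 12004 in G12V replicate 1, the best rank of any of the 37 sites in that list.

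MEG3-2 had folds of 7.63 and 14.85 in MCF10A and 8.26 and 13.8 in G12V. Its log2 difference of -0.18 ± 0.44 (SE) was the lowest of the 11. GNAS-4 had folds of 4.30 and 7.24 in MCF10A and 8.06 and 8.45 in G12V, and its log2 difference of 0.45 ± 0.48 (SE) was the highest. It ran from 0.10 (without G12V replicate 1) to 0.82 (without G12V replicate 2) with 1 library left out, and CDKN1C-1 was then the highest without MCF10A replicate 1, at 1.04. Both differences were smaller than their standard errors, and the scaled values overlapped at both sites.

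No site of the 8006 called in all 4 lists differed between the cell types in limma at an adjusted p under 0.05, so the share called was 0% in either direction. This means that no difference was detected with 2 libraries per cell type, not that binding was equal. Only sites called in all 4 lists entered the fit. The 969 sites of both G12V lists only and the 76 of both MCF10A lists only were therefore not tested. Quantile scaling gives every library the same distribution, so an overall rise or fall in enrichment could not appear. At an unadjusted p under 0.05 there were 419 of the 8006, and 0 of the 11 near the imprinted genes. The 11 log2 differences had a median of 0.13, with 7 above 0 and 4 below. Over all 8006 it was -0.01, which the scaling holds near 0 by construction. Their standard errors ran from 0.42 to 0.48, about the size of the largest of the 11 differences. Both G12V values lay above both MCF10A values at 2 of the 11 sites, against 17.2% of the 8006, and below them at 0 of the 11, against 16.6%. With the summit pileup per M reads in place of fold enrichment, limma called 9 sites higher and 1 lower in G12V of the 8006 and 0 of the 11. The smallest p among the 11 was then 0.030 at CDKN1C-2 (adjusted p 0.580 in limma, log2 difference 0.57), and 6 of the 11 differences changed sign. The median of the 11 was then -0.087.

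**Figure D4:**
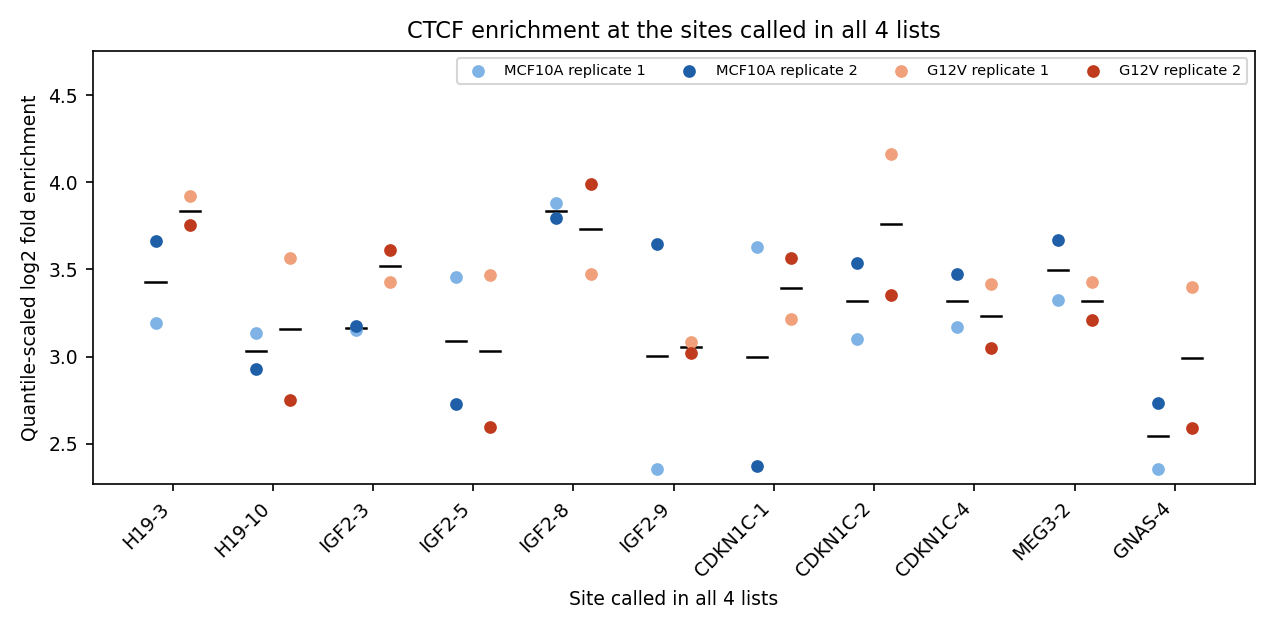
Quantile-scaled log2 fold enrichment (y axis) at the 11 sites called in all 4 lists (x axis), with 1 point per library, blue for MCF10A and red for G12V, and a black bar at the mean of the 2 replicates. Blue and red points overlap at 9 sites and stand apart, with red higher, at H19-3 and IGF2-3.

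Across the 37 sites, 27 had a match to the CTCF matrix, or 73.0% (95% exact binomial interval 55.9% to 86.2%, counting error alone). Over all CTCF sites it was 81.3%, and in windows 2000 bp beside the summits of all sites 5% by construction. Beside the 37 sites themselves, 8 of the 37 such windows had a match, or 21.6%. Matches stood at 9 of the 11 sites called in all 4 lists, where 93.6% of all such sites had one, and at 12 of the 16 called in 1 list, where 66.4% had. Of the 8 sites in 2 lists only 4 had a match, against 80.1%, and the other 4 were H19-2, IGF2-2 and, with the shared word, H19-8 and H19-9. At the sites in all 4 lists the median score was 17.5, close to the 17.3 of all such sites. Of the 27 matches, 15 lay on the plus and 12 on the minus strand, and 18 held at least 1 CpG, against 45.6% of the matches over all sites. The share among the 27 was 66.7%. Sites in all 4 lists hold CpG more often as a whole (60.8% of 7491), but the 9 such matches here did not exceed that (5 of 9, or 55.6%). The higher share of the 27 therefore lay at sites called in fewer lists, and it was not tested.

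**Figure D5:**
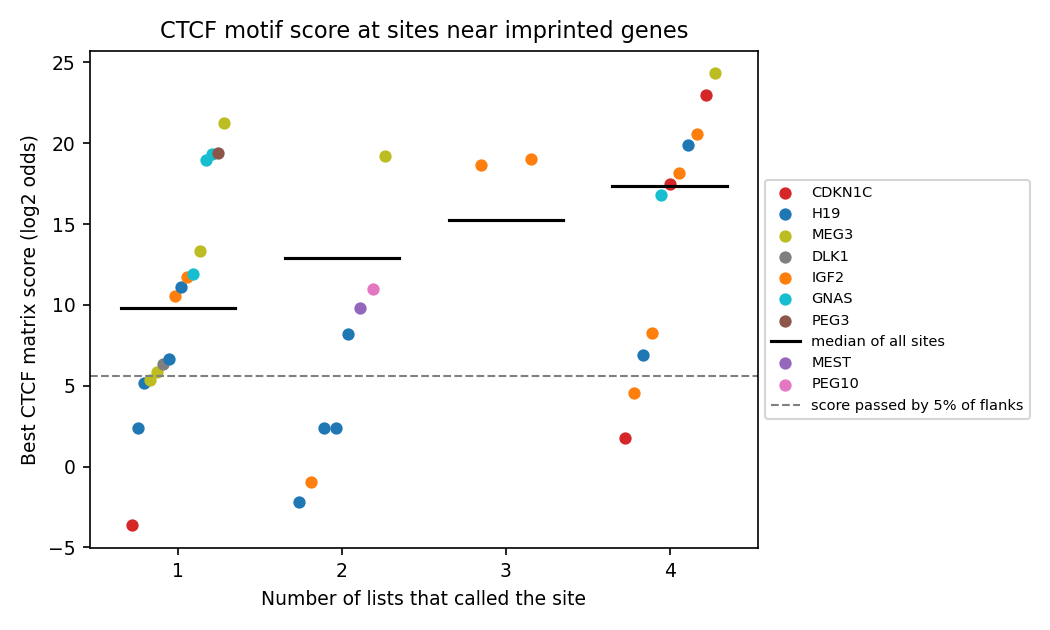
Best CTCF matrix score within 150 bp around the summit in log2 odds (y axis) against the number of lists that called the site (x axis), with points coloured by gene, black bars at the median of all CTCF sites and a dashed line at the score passed by 5% of flanking windows. High scores occur in every column, up to 21.3 among sites called in 1 list.

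The following 5 matches are shown as examples, 1 per gene, of sites near annotated starts that were missing from both replicate 1 lists. GNAS-2, MEG3-3 and MEG3-6 also had a match and lay 137, 220 and 413 bp from a start, and their letters are not shown. The examples are given as before, with 5 bases on each side where an annotated UTR is close.
MEST-1 at chr7:130125999-130126028, plus strand: tacccTTTGCAATAGGTGGCGCTGAcgcct
PEG10-1 at chr7:94285515-94285544, minus strand: gtggcCCGCCGCTAGAGGGAGTACGggatt
PEG3-1 at chr19:57348916-57348965, minus strand: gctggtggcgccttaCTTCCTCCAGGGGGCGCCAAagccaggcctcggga
MEG3-1 at chr14:101293616-101293665, plus strand: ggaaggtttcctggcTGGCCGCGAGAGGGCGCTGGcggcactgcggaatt
GNAS-1 at chr20:57414632-57414681, minus strand: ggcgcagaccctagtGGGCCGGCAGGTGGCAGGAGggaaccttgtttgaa

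Scores above 18 were found at PEG3-1 (19.4), MEG3-1 (21.3), GNAS-1 (18.97) and GNAS-2 (19.4), although each of these sites was called in 1 list. These scores passed the median of the sites called in all 4 lists. They were, however, the highest among the 16 sites called in 1 list. The median of those 16 was 10.8, against 9.78 over all CTCF sites called in 1 list. PEG10-1 and MEST-1 scored lower, at 10.97 and 9.79. A match describes the letters in the window and not the binding itself.

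A list of 26 other imprinted genes was counted in the same way. Their windows held 71 distinct CTCF sites, of which 21 were also near the 10 genes above. In all 4 lists 21 were called, or 29.6%, against 27.5% of all CTCF sites. The number per gene ran from 0 at DIRAS3, a small GTPase gene, to 10 at KCNQ1, a potassium channel gene, with a median of 3. KCNQ1 had 7 sites in all 4 lists, 2 of them shared with the CDKN1C window, while KCNQ1OT1 inside it had 0. No site was called in both MCF10A lists only, where the share of all sites was 0.261%. Of the 71, 2 were called in both G12V lists only, where the share of all sites was 3.33%. These 2 lay at chr15:23887463-23887873 and chr15:23894145-23894429, near the adjacent genes MKRN3, MAGEL2 and NDN. Their folds were 8.92 and 7.21 in G12V replicate 1 and 6.67 and 7.64 in replicate 2, and both had a motif match.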

How the data were processed

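CTCF ChIP-seq peak lists of 2 MCF10A and 2 G12V libraries were used. The authors aligned uniquely mapping reads to hg19 with Bowtie and ran MACS2 with its default settings, and each deposited list is of 1 library. For each peak the deposited values are a score (10 times the −log10 q-value, whole), a fold enrichment, and the summit's −log10 p-value and −log10 q-value. The fold enrichment is the ratio of summit pileup to local background after 1 is added to each. Fold enrichment was used for comparison and −log10 q for ranks.

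Peaks overlapping by 1 bp were merged into sites, which were taken when within 50 kb of a gene body. No peak passed a chromosome end of GRCh37, whose sequence and GENCODE release 44 genes mapped to it were used. The lists hold no read totals. Summit reads, local background and depth were recovered from fold and p together, and the ChIP depth was 11.4 to 18.6 M reads (1 M is 1e6 reads). A CTCF matrix of 20 positions was learned from 7991 other sites called in all 4 lists and searched in 150 bp around summits, on both strands.

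Log2 fold enrichment at sites of all 4 lists was quantile scaled and fitted with limma 3.58.1 (R 4.3.3; Benjamini-Hochberg over 8006 sites, threshold 0.05). Scripts ran in Python 3.11.15 with pandas 2.3.3, scipy 1.17.1 and pysam 0.24.0. Simulated data served as a check of the code, which does not mean that the fit would find small differences. Intervals are exact binomial at 95% and cover counting error alone. The rule for named sites took all sites of all 4 lists, all sites of one cell type only, and the strongest site per gene by mean percentile; others are named to account for every site. The genes, lists and rules were chosen with earlier results of these data known. Alternatives tried were other scaling, pileup, a replicate block, left-out libraries, a −log10 q of at least 5, summits within 150 bp, equal list lengths, other windows (25 and 100 kb), and other motif settings.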

Additional observations from a re-analysis of the deposited data

Results flagged for a closer look

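A p53 peak lay in the DLK1 window, in data outside the CTCF comparison. It was at chr14:101159703-101159897, 32261 bp upstream of the DLK1 5′ end, in G12V replicate 2 of the Nutlin-treated p53 libraries, with a fold enrichment of 6.25. It ranked 1984 of 2619 peaks in that list, the longest of the 4 p53 lists. The other 3 p53 lists, of 1718, 885 and 477 peaks, had 0 peaks near any of the 10 genes. A peak in 1 of the 2 G12V lists has no replicate behind it, and a difference between the cell types was not tested.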

How the results depend on the processing

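The count of 11 sites in all 4 lists was 7 with every list cut to the shortest (of 17 sites left) and 6 with a 25 kb window, and 9 to 15 under the other planned settings except left-out libraries, which gave 11 to 12. With lists cut to the shortest, 1 site was in both MCF10A lists only (IGF2-4, or 5.88%, against 3.67% of all sites). None was then in both G12V lists only, against 3.54% of all sites. With a 100 kb window 1 site, at chr11:2095558-2095897, was in both G12V lists only (2.08%, against 3.33%). Leaving out a library moved the count for MCF10A only between 0 and 5 (5 without MCF10A replicate 1) and that for G12V only between 0 and 10 (10 without G12V replicate 1), because a single list then stands for the cell type. That is 13.5% of sites against 3.64% of all sites for the 5, and 27.8% against 29.0% for the 10. The log2 ratio of peaks per list ran from -0.48 (without G12V replicate 2) to 0.68 with a library left out and was -0.12 with lists cut to the shortest, all within the replicate spread. The motif share was 51.4% at the score passed by 1% of flanks, against 65.5% of all sites, and 67.6% to 76.0% otherwise.

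Sites differing between the cell types in limma numbered 10 with summit pileup and 0 with median centring, with peaks of a −log10 q of at least 5, with summits within 150 bp and with each library left out (lowest and highest 0). Equal list lengths and other windows were not fitted in limma. The replicate block (replicate number beside cell type) gave 0, with 454 sites at an unadjusted p under 0.05. On the scaled values of the fitted sites, same-numbered replicates deviated together with a correlation of 0.031. The scaling removes a shift shared by a whole library, and sites missing from any list were not fitted. The value therefore cannot show whether same-numbered replicates shared a batch. Of all CTCF sites, 5561 were called in both replicates 2 only and 9 in both replicates 1 only. A shared batch was not tested. The numbers were not taken as pairs, because no description ties the replicates across cell types. No site near the imprinted genes passed in any of these fits (smallest adjusted p 0.580). Signs at single sites were not stable. With pileup they turned at H19-10 (-0.35), IGF2-8 (0.42), IGF2-9 (-0.32), CDKN1C-1 (-0.13), MEG3-2 (0.13) and GNAS-4 (-0.23), and with median centring at IGF2-9 (-0.038). With 1 library left out, values turned sign at IGF2-5 (-0.49 to 0.36), IGF2-9 (-0.63 to 0.67), CDKN1C-1 (-0.23 to 1.04), CDKN1C-4 (-0.27 to 0.094), H19-10 (-0.26 to 0.52) and IGF2-8 (-0.36 to 0.15). At the other 5 sites the sign held, at H19-3 (0.17 to 0.62), IGF2-3 (0.26 to 0.47), CDKN1C-2 (0.046 to 0.83), MEG3-2 (-0.37 to -0.0061) and GNAS-4 (0.097 to 0.82). The cause of these changes was not tested. The weakest peaks of the lists stood on 8 to 11 summit reads. ChIP depth was 18.6 and 13.6 M reads in the libraries of the 2 shorter lists and 11.5 and 11.4 M reads in those of the 2 longer ones.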
